A study of Brassica rapa with 38 samples.

Results

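The genes described here are those whose transcript share was lower after each doubling of the chromosome set in young leaves of *Brassica rapa*, first from monoploid to diploid and then from diploid to autotetraploid. They were selected on the measured values themselves, by a rule applied to 8 RNA-seq libraries. A gene model had to lie on chromosome A01, A03, A05, A06, A07, A08 or A10, to have a TPM of at least 1 in all 8 libraries and a mean TPM of at most 500, and to have every diploid value below every monoploid value and every tetraploid value below every diploid value. The log2 ratio of the group means also had to be -0.3 or lower at both steps. Of the 46479 gene models in the tables, 31495 lay in the regions used, 14995 met the limits on level and could therefore enter, and 187 met the whole rule. TPM gives how much of the transcript pool of a library a gene makes up, corrected for length, and "step 1" and "step 2" are used for the log2 ratios of diploid over monoploid and of tetraploid over diploid mean TPM.

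The plants shared the genotype 85_1. The starting point was a monoploid raised by culture of isolated microspores of the inbred line '85-1'. Colchicine, which blocks the spindle so that the copied chromosomes stay in one nucleus, was applied in succession to give the other ploidy levels, so each level derives from the one below it. All were multiplied in tissue culture and grown in greenhouses, and the second or the third inner young leaf was taken 60 days after sowing, at the transition to heading. There were 3 monoploid, 2 diploid and 3 tetraploid libraries. The labels do not say whether the replicates came from separate plants, or how many plants entered each, so any spread given is that between these libraries and may be technical in part. The chromatin accessibility and histone modification samples of the series were not analysed here.

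A change of the whole chromosome set multiplies all chromosomes together, so the number of copies of one gene relative to another then stays the same. Whether this held in every library was not tested, and chromosomes that stood apart in single tetraploid libraries are described below. In plants, genome doubling is known to go along with larger cells and a different ratio of nucleus to cytoplasm and of cell surface to volume, and with changes in the relative level of some transcripts. Because TPM is scaled to a fixed total per library, it measures that relative level and not the number of transcripts per cell. A gene whose output per cell stayed level while that of the other genes increased would also show a lower TPM. In whole leaves, in addition, fewer cells of a type that expresses a gene and less of its RNA per cell cannot be told apart. The IDs of the gene models found no entry in the RefSeq gene table (0 matched), so the genes are given by ID and position with no function, and the leaf identity of the samples could not be checked on marker genes. Positions are those of the deposited tables, whose assembly is not given in the sources used here.

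Chromosomes A02, A04 and A09 are outside the rule. Their genes stood apart in single tetraploid libraries. Relative to the diploid mean and to the 7 chromosomes used, the median log2 level of A02 genes was higher by 0.33 in tetraploid replicate 1 and by 0.32 in replicate 3, that of A09 genes by 0.31 in replicate 1, and that of A04 genes by 0.32 in replicate 2. On the 7 chromosomes used, the same value stayed between -0.02 and 0.03 in all libraries. A block of 126 gene models on A06 was also left out by the rule. The depth of the libraries was 5.86 to 8.06 Gb of aligned bases, and the lowest mean coverage of any of the 187 genes in any library was 5.33 reads per base. The tables give no read counts, so no counting interval was computed.

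Full separation of the 8 libraries in the order monoploid above diploid above tetraploid was found for 322 of the 14995 eligible genes, or 2.15%. The mirrored order, with tetraploid highest, held 266 genes (1.77%). The 2 orders with the diploid highest differed widely, as 944 genes (6.3%) had the tetraploid in the middle and 28 (0.187%) the monoploid. The diploid was lowest and the monoploid highest in 33 genes (0.22%), and the diploid lowest and the tetraploid highest in 2 (0.0133%). The limit on the size of the steps removed 65 of the 322 genes at step 2 alone, 30 at step 1 alone and 40 at both. The whole rule held for 187 genes, or 1.25% of the eligible genes, and the same rule with all signs turned, for rising genes, held for 100, or 0.667%.

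**Figure D1:**
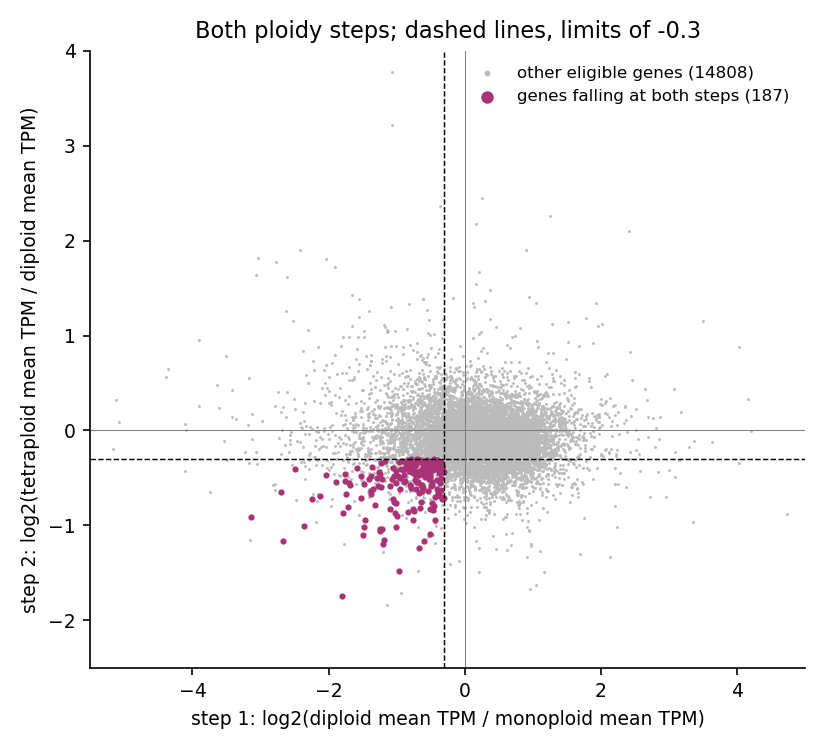
Step 1 (x axis) against step 2 (y axis), both as log2 ratios of group mean TPM, for the 187 selected genes (purple) and the other eligible genes (grey); dashed lines are the limits of -0.3. The selected genes fill the lower left corner by construction, down to -3.13 at step 1 and -1.75 at step 2, while the eligible genes are centred at 0.29 and -0.09.

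The eligible genes were themselves not centred on 0. Their median step 1 was 0.29 and their median step 2 was -0.09, so a gene of typical behaviour was above its monoploid share in the diploid. Over the 187 selected genes the median step 1 was -0.72 (quartiles -1.05 and -0.51) and the median step 2 was -0.48 (quartiles -0.66 and -0.39). Relative to the medians of the eligible genes these steps were -1.01 and -0.39. From monoploid to tetraploid the median log2 ratio was -1.23, and the tetraploid mean was 42.6% of the monoploid mean in the median gene, with a range from 6.05% to 62.7%. The diploid mean was 60.8% of the monoploid mean in the median gene. All these values chose the genes and are given as a description, with no test.

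The summed TPM of the 187 genes, whose order over the groups is fixed by the rule, is given library by library. It was 9214, 8433 and 8488 in monoploid replicates 1, 2 and 3, 3864 and 4262 in the diploid replicates, and 2629, 2613 and 3097 in the tetraploid replicates. The monoploid mean was 8712 ± 436 (SD, n = 3), the diploid mean 4063 ± 282 (SD, n = 2) and the tetraploid mean 2780 ± 275 (SD, n = 3), so the sum in the diploid was 46.6% and that in the tetraploid 31.9% of the monoploid sum. The 10 genes with the highest mean TPM weighed heavily in it, with 46.9% to 48.6% of the sum in the monoploid, 40.2% to 41.0% in the diploid and 37.1% to 42.2% in the tetraploid libraries.

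**Figure D2:**
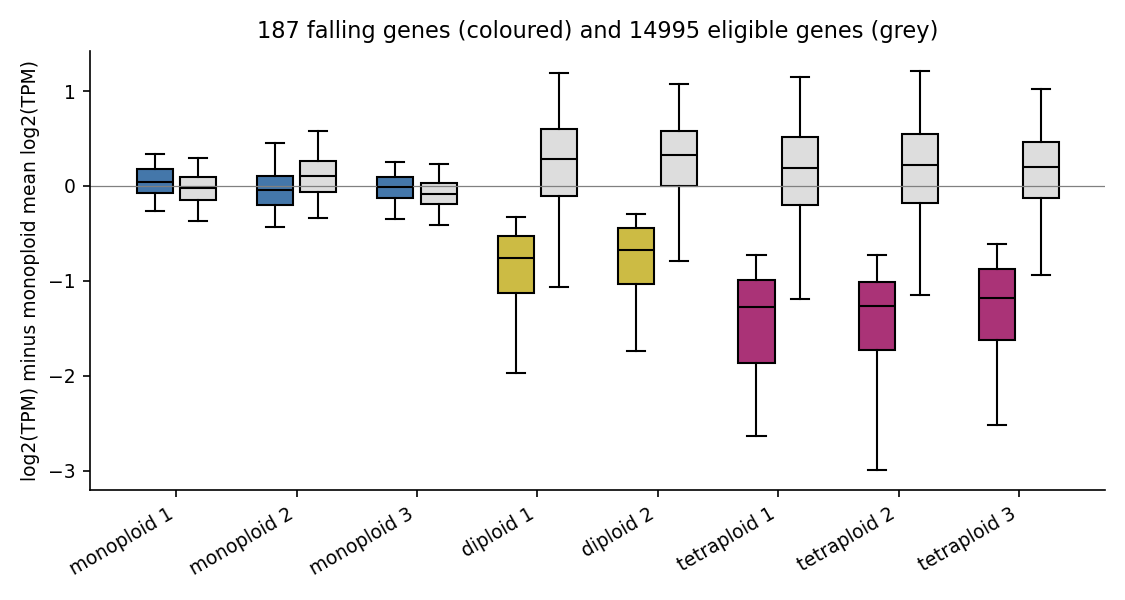
Log2 TPM of each gene minus its mean log2 TPM over the monoploid libraries (y axis) in each of the 8 libraries (x axis), for the 187 selected genes (coloured) and the 14995 eligible genes (grey); boxes span the quartiles, lines are medians and whiskers reach the 5th and 95th percentiles. Medians of the selected genes lie at -0.76 and -0.68 in the diploid and between -1.28 and -1.18 in the tetraploid libraries, while those of the eligible genes lie at 0.28 and 0.32 and between 0.19 and 0.22.

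The gap between neighbouring groups was wider at step 1 than at step 2. The lowest monoploid library exceeded the highest diploid library by a median of 0.36 on the log2 scale, and the lowest diploid library exceeded the highest tetraploid library by a median of 0.17. A gap under 0.1 was found in 26 genes at step 1 and in 53 at step 2, and only 30 of the 187 genes had a gap of at least 0.3 at both steps. For comparison, the median SD of log2 TPM between replicates of these genes was 0.20 in the monoploid, 0.14 in the diploid and 0.22 in the tetraploid, beside 0.21, 0.12 and 0.17 over all eligible genes. At step 2 the median gap, 0.17, was thus below the median SD between tetraploid replicates, 0.22. A gap between single libraries and an SD are unlike measures, and they were not compared gene by gene.

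Single libraries differed within the groups. The selected genes were lower in monoploid replicate 2 than in the mean of the other monoploid libraries by a median of 0.06 on the log2 scale (110 of 187 genes), while the eligible genes were higher there by 0.16. Tetraploid replicate 3 was the highest tetraploid library in 99 of the 187 genes (52.9%), beside 31.7% of the eligible genes. Its median log2 difference from the other tetraploid libraries was 0.15, beside -0.01 over the eligible genes. Diploid replicate 1 was below diploid replicate 2 in 121 of the 187 genes (64.7%), beside 57.6% of the eligible genes. These 2 libraries limited the selection most. Without diploid replicate 1, the rule held for 482 genes, and without tetraploid replicate 3 for 450. Leaving out any other library gave 201 to 251 genes, 215 of them without monoploid replicate 2. A rule of full separation admits more genes when a library is removed, so these larger counts follow in part from its construction. Of the 187 genes, 94 met the rule in every one of the 8 selections with a library left out. Between replicates, log2 TPM of the 187 genes correlated at r = 0.953 to 0.985 across genes, which are not independent replicates.

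Step 1 was larger than step 2 in 147 of the 187 genes and smaller in 40, and in 44 genes both lay within 0.1 of each other. In the median gene, 58.7% of the log2 fall lay in step 1, with a range from 30.1% to 86.0%. A log2 fall of at least 1 occurred at step 1 in 56 genes, at step 2 in 15 and at both steps in 11. From monoploid to tetraploid, 139 genes fell by more than 1 and 33 by more than 2 on the log2 scale. These counts are for TPM as deposited, and the balance of the steps depended on the scale. The median steps 1 and 2 of the 187 genes were -0.72 and -0.48 as deposited. They were -0.64 and -0.60 with FPKM, which is not scaled to a fixed total, and -1.01 and -0.42 with median-ratio rescaling of TPM.

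Of the 187 genes, 10 were ranked first by the step nearer 0, that is by how large the decrease was at both steps at once. The first was BRA01G0016173 (A01, 33470589 to 33471493, plus strand). Its TPM was 87.0, 34.0 and 58.9 in the monoploid, 21.4 and 13.0 in the diploid, and 3.11, 7.15 and 5.10 in the tetraploid libraries, with steps of -1.80 and -1.75. The monoploid libraries spanned a wide range, but the lowest was still above both diploid libraries. BRA06G0038403 (A06, 45766890 to 45767785, minus strand) was not among these 10 but among the 5 with the largest total decrease, and its libraries lay close together within each group. It had 198, 172 and 165 TPM in the monoploid, 35.8 and 33.9 in the diploid and 16.7, 16.9 and 18.4 in the tetraploid libraries, so that its level in the tetraploid was 9.71% of that in the monoploid. Its steps were -2.36 and -1.01, and the lowest library of each group stood above the highest of the next by 2.2 and 0.88 on the log2 scale.

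BRA07G004605 (A07, 18375338 to 18377213, minus strand) had 13.0, 9.55 and 11.5 TPM in the monoploid, 3.63 and 4.46 in the diploid and 2.07, 1.58 and 2.02 in the tetraploid libraries, with steps of -1.49 and -1.10. BRA06G0040577 (A06, 10523445 to 10523944, minus strand) had 125, 120 and 123 TPM in the monoploid, 45.6 and 58.6 in the diploid and 25.1, 15.4 and 34.3 in the tetraploid libraries, with steps of -1.24 and -1.06. In both genes the monoploid values lay far from the rest and the groups were apart by at least 0.41 on the log2 scale at either step. BRA10G0012014 (A10, 26922427 to 26926749, plus strand) had 7.16, 10.9 and 6.51 TPM in the monoploid, 3.52 and 3.41 in the diploid and 1.61, 1.73 and 1.73 in the tetraploid libraries. Its gap at step 2, 0.98, was the widest of all 187 genes, although the values are low. BRA01G0016859 (A01, 14714132 to 14715681, plus strand) was close to constant among monoploid libraries, at 21.8, 23.4 and 23.7 TPM, and had 12.4 and 7.79 TPM in the diploid and 3.69, 5.33 and 4.61 TPM in the tetraploid libraries.

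**Figure D3:**
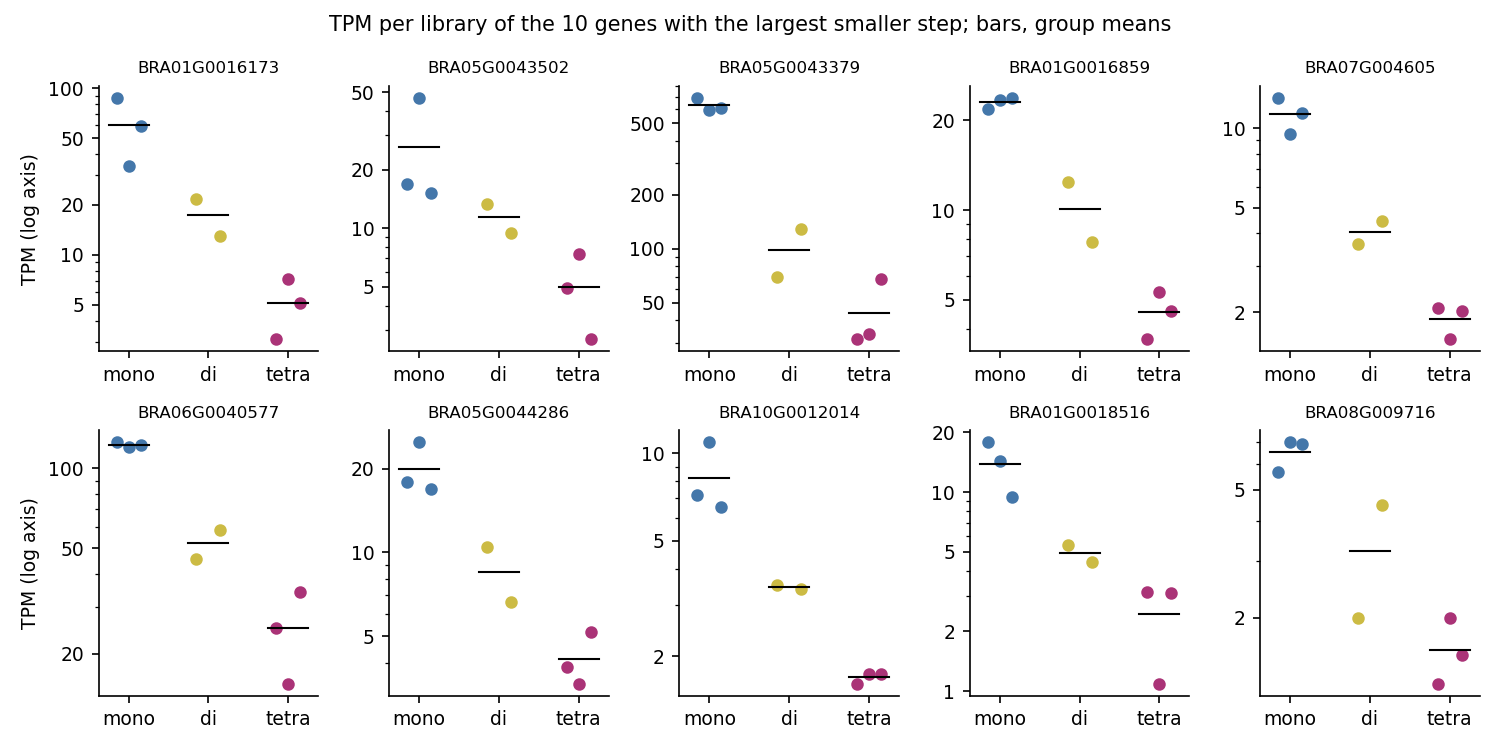
TPM (log axis, a different range in each panel) in the 3 monoploid, 2 diploid and 3 tetraploid libraries of the 10 genes with the largest smaller step; points are libraries and bars are group means. BRA05G0043502 and BRA08G009716 show neighbouring groups that nearly touch, with diploid values of 13.4 and 9.49 below a lowest monoploid value of 15.2 in the former, and a lowest diploid value of 2.00 above a highest tetraploid value of 1.99 in the latter.

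In other genes of this top set, single libraries moved the size of a step or came close to the next group. BRA05G0043502 (A05, 6372521 to 6375579) had a TPM of 46.6 in monoploid replicate 2 but 16.9 and 15.2 in the other monoploid libraries, beside 13.4 and 9.49 in the diploid and 4.91, 7.39 and 2.69 in the tetraploid. Its step 1 was -1.20 with all libraries and -0.49 without monoploid replicate 2. BRA08G009716 (A08, 21425845 to 21426543) had 2.00 and 4.46 TPM in the diploid replicates and 1.25, 1.99 and 1.53 in the tetraploid, so that its diploid and tetraploid groups were apart by 0.01 on the log2 scale. Its step 2 of -1.02 was -1.49 without diploid replicate 1 and -0.33 without diploid replicate 2. The gaps in BRA05G0044286 (A05, 12455034 to 12455267) and BRA01G0018516 (A01, 4355691 to 4359284) were 0.36 to 0.80 on the log2 scale. The steps were -1.22 and -1.04 in the former and -1.48 and -1.02 in the latter. Of these 4 genes, BRA05G0044286 has the shortest span, 234 bp.

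Total decreases were largest where step 1 was large. BRA03G0026017 (A03, 8987693 to 8989303) had the lowest ratio of all, with a TPM of 106, 90.1 and 115 in the monoploid, 9.78 and 13.8 in the diploid and 6.68, 4.22 and 7.90 in the tetraploid libraries. Its monoploid mean was 16.5 times its tetraploid mean, and its steps were -3.13 and -0.91. BRA10G0013805 (A10, 17305682 to 17306609) had 86.1, 62.0 and 97.0 TPM in the monoploid, 10.8 and 14.4 in the diploid and 5.56, 9.46 and 9.13 in the tetraploid libraries, and steps of -2.69 and -0.65. BRA01G0019055 (A01, 1769988 to 1773622) had the largest share of its log2 fall in step 1, 86.0%. It had 19.4, 44.8 and 34.8 TPM in the monoploid, 6.27 and 5.45 in the diploid and 5.16, 5.11 and 2.99 in the tetraploid libraries. Here step 1 was -2.49 and step 2 -0.41, and tetraploid replicates 1 and 2 lay just below the diploid libraries while replicate 3 was clearly lower.

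The reverse shape, with most of the decrease at the second doubling, was less common with TPM as deposited. BRA08G008550 (A08, 27647876 to 27648981) had 30.5, 26.1 and 24.9 TPM in the monoploid, 20.3 and 17.9 in the diploid and 9.80, 8.23 and 8.93 in the tetraploid libraries, with steps of -0.51 and -1.09. The diploid libraries were close to the monoploid ones, and all 3 tetraploid libraries were far below both. BRA06G0038855 (A06, 43304539 to 43305201) had 18.2, 14.5 and 10.9 TPM in the monoploid, 9.16 and 10.1 in the diploid and 4.91, 3.95 and 4.09 in the tetraploid libraries, with steps of -0.59 and -1.16. BRA10G0012068 (A10, 26710309 to 26710512), a gene model of 204 bp, had 8.98, 5.60 and 9.31 TPM in the monoploid, 5.24 and 4.80 in the diploid and 1.85, 2.62 and 1.93 in the tetraploid libraries, and its steps were -0.67 and -1.23. In these 3 genes the gap at step 2 was 0.87 to 0.90 on the log2 scale and that at step 1 at most 0.30.

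Levels spanned more than 2 orders of magnitude. The mean TPM of the 187 genes ran from 1.98 to 457 with a median of 12.2, beside a median of 13.3 over all eligible genes, and 10 genes had a mean of at least 100. The gene with the highest mean was BRA05G0043380 (A05, 5725678 to 5726478), with 928, 854 and 798 TPM in the monoploid, 272 and 263 in the diploid and 159, 160 and 220 in the tetraploid libraries, and steps of -1.69 and -0.57. BRA10G0013593 (A10, 19078729 to 19079699) had 846, 736 and 679 TPM in the monoploid, 150 and 195 in the diploid and 98.4, 74.0 and 148 in the tetraploid libraries. Its monoploid libraries stood well apart, but tetraploid replicate 3 came within 0.02 of diploid replicate 1 on the log2 scale. BRA07G006089 (A07, 26844908 to 26846337) and BRA07G007278 (A07, 33186876 to 33188865) were abundant genes of moderate steps, -0.54 and -0.63 in the former and -0.84 and -0.36 in the latter. The former had 390, 434 and 365 TPM in the monoploid, 266 and 278 in the diploid and 173, 146 and 208 in the tetraploid libraries.

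At the other end, BRA03G0026463, BRA08G0010487 and BRA05G0045529 had the lowest mean TPM. Their monoploid means were 2.70 ± 0.35, 2.78 ± 0.59 and 2.62 ± 0.46 (SD, n = 3) and their tetraploid means 1.34 ± 0.28, 1.31 ± 0.21 and 1.39 ± 0.33 (SD, n = 3). Genes this low can hardly show a larger decrease under the rule, as no library may be below a TPM of 1. The share of eligible genes that met the rule was 0.426% for monoploid means under 5 TPM (13 of 3052) and 1.11% between 5 and 10 TPM (37 of 3325). It was 1.54% between 10 and 30 TPM (79 of 5141), 1.65% between 30 and 100 TPM (42 of 2551) and 1.73% from 100 TPM upward (16 of 926). The median total of the selected genes went from -1.01 in the lowest of these classes to -1.64 in the highest. The median step 1 of all eligible genes went from 0.44 to 0.14 over the same classes. The classes are cut on monoploid values, which the rule also used, and the part of the lower TPM limit was not tested.

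Gene span, which the rule did not use, was slightly shorter than among the eligible genes, with medians of 1680 and 1833 bp. Spans under 1000 bp were found for 46 of the 187 genes (24.6%) and 19.4% of the eligible genes. The median total was -1.65 in those 46 genes, -1.19 in the 67 genes of 1000 to 2000 bp, -1.15 in the 61 genes of 2000 to 4000 bp and -1.23 in the 13 longer genes. The shortest, BRA06G0042232 (A06, 1031486 to 1031665), covers 180 bp and had 265, 280 and 242 TPM in the monoploid, 162 and 147 in the diploid and 85.0, 99.1 and 78.0 in the tetraploid libraries. With steps of -0.76 and -0.82 it was nearly even over both doublings, and its groups were 0.58 and 0.57 apart. The longest, BRA01G0014779 (A01, 44509801 to 44523671), covers 13871 bp and had monoploid, diploid and tetraploid means of 3.40 ± 0.47 (SD, n = 3), 2.65 ± 0.07 (SD, n = 2) and 1.64 ± 0.32 TPM (SD, n = 3). Genes rising at both steps, the mirror set of 100, had a similar median span of 1610 bp and a median mean TPM of 9.48, and their median steps were 0.88 and 0.46.

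The 187 genes were spread over all 7 chromosomes. A05 held the most, 38 of 2004 eligible genes (1.90%), followed by A03 with 33 of 3168 (1.04%) and A01 with 31 of 2162 (1.43%). There were 24 of 2037 on A07 (1.18%), 23 of 2276 on A06 (1.01%), 21 of 1658 on A08 (1.27%) and 17 of 1690 on A10 (1.01%). On A05 only 5 genes met the mirror rule for rising genes, the fewest of the 7 chromosomes, although the median steps of the eligible genes of A05, 0.27 and -0.10, were close to those of the other chromosomes, 0.28 to 0.31 and -0.10 to -0.08. These differences between chromosomes were not tested. With the gene order of each chromosome cut into 4 equal classes, the share of eligible genes that met the rule was 1.51% in the first (57 genes), 1.17% (42) and 1.10% (40) in the middle ones and 1.20% (48) in the last. The genes lay in equal numbers on both strands, 94 on the plus and 93 on the minus strand. None of them overlapped another gene model, and an overlap was rare among the eligible genes too (54 of 14995, or 0.360%).

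**Figure D4:**
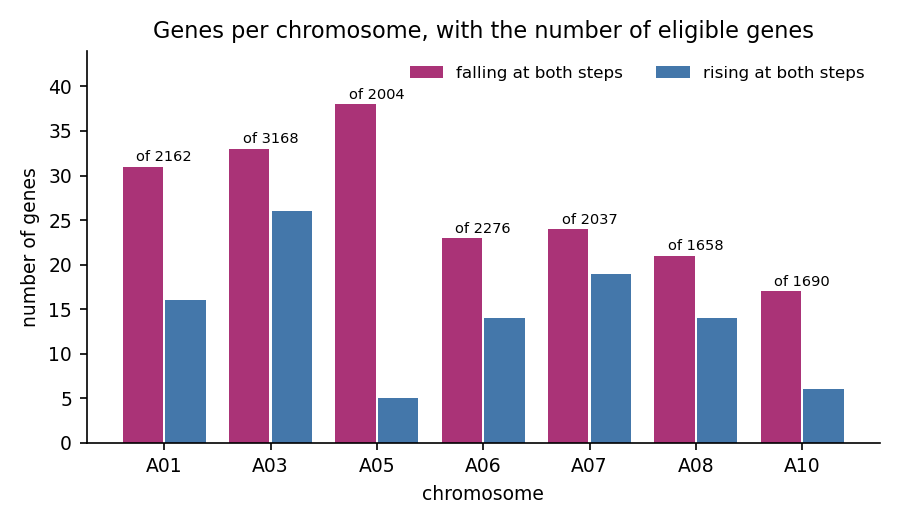
Number of genes (y axis, from 0) falling at both steps (purple) and rising at both steps (blue) on each of the 7 chromosomes (x axis), with the number of eligible genes above the bars. A05 has the most falling genes, 38, and the fewest rising genes, 5.

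The nearest other selected gene was a median of 56 gene models away, and 17 of the 187 had one within 5 gene models. The spacing of equally many eligible genes was not computed, so nothing is read from these distances. The 175 eligible genes that directly neighboured a selected gene without being selected had a median step 1 of 0.27 and a median step 2 of -0.12, beside 0.29 and -0.09 over all eligible genes. A step 1 of -0.3 or lower was found in 32 of these neighbours (18.3%) and in 15.8% of all eligible genes, and a step 2 that low in 30 of the neighbours (17.1%) and in 14.1% of all eligible genes. Both steps were at or below -0.3 in 3 of the 175 neighbours and in 470 of the 14995 eligible genes. The eligible genes include the 187 selected ones, which meet both limits by the rule, while the neighbours leave them out. The shares over all eligible genes are raised by this, so no difference is read from them.

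Direct neighbours among the selected genes formed 4 pairs. BRA05G0043379 (A05, 5724261 to 5725061, minus strand) and BRA05G0043380 lie 616 bp apart, start next to each other on opposite strands, and have the same span of 801 bp. BRA05G0043379 had 689, 595 and 607 TPM in the monoploid, 69.7 and 128 in the diploid and 31.3, 33.7 and 67.6 in the tetraploid libraries, with steps of -2.67 and -1.16. Both genes are among the 5 most abundant of the 187, and the decrease of BRA05G0043379 from monoploid to tetraploid, -3.83, was larger than that of its neighbour, -2.26. In both, tetraploid replicate 3 was the highest tetraploid library. The step 2 of BRA05G0043379 was -1.54 without diploid replicate 1 and -0.66 without diploid replicate 2. Gene models of equal length side by side can be near-identical copies between which reads are divided, and whether that is so here was not tested.

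The second pair of A05 with facing starts, BRA05G0043333 (5441761 to 5443072, minus strand) and BRA05G0043334 (5445272 to 5447556, plus strand), is separated by 2199 bp. BRA05G0043333 had means of 31.9 ± 5.01 (SD, n = 3), 16.5 ± 0.67 (SD, n = 2) and 10.7 ± 1.74 TPM (SD, n = 3), and BRA05G0043334 had 10.4 ± 1.75, 5.21 ± 0.32 and 2.79 ± 1.83 TPM. Tetraploid replicate 2 of BRA05G0043334, at 4.82 TPM, nearly reached the diploid values of 5.44 and 4.99. BRA03G0026876 (A03, 13282482 to 13284760) and BRA03G0026877 (13285073 to 13285579) share the minus strand and are 312 bp apart. Their steps were -1.01 and -0.43 in the former and -0.95 and -0.50 in the latter, where the rule fixes the shared direction. BRA05G0046229 (A05, 42155706 to 42158177) and BRA05G0046230 (42161594 to 42162131), both on the plus strand and 3416 bp apart, had steps of -0.40 and -0.39 and of -0.74 and -0.52, with tetraploid replicate 3 of BRA05G0046230 (33.5 TPM) just under diploid replicate 1 (33.7 TPM).

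At the limit of the rule, the last genes inside were BRA01G0018148, with steps of -0.30 and -0.43, and BRA07G006387, with -0.45 and -0.30. The first genes outside were BRA03G0030073, with -0.42 and -0.299, and BRA01G0017430, with -0.29 and -0.33. BRA01G0018148 had 26.6, 22.4 and 21.7 TPM in the monoploid, 19.3 and 18.9 in the diploid and 14.8, 12.1 and 15.7 in the tetraploid libraries. BRA03G0030073 had 45.9, 36.0 and 42.8, then 28.2 and 34.0, then 25.4, 22.7 and 27.7 TPM in the same order, so genes on either side of the limit were alike.

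The scale of the values moved the number of genes and the balance of falling and rising. With TPM as deposited, falling genes were 65.2% of the genes that met the rule or its mirror. With FPKM, which is not scaled to a fixed total, they were 84.6% (241 falling and 44 rising). The table of diploid replicate 2 differs from the others in row order and number of decimals, and its sum of FPKM relative to its sum of TPM was 0.931, beside 0.801 to 0.855 in the other 7 libraries; its part in the FPKM count was not tested. With the TPM of the 7 chromosomes set to an equal sum in every library, a choice made after the data were seen, they were 48.7% (155 falling and 163 rising). The summed TPM of these 7 chromosomes was 586545 to 616926 in the monoploid, 646322 and 658726 in the diploid and 608166 to 635441 in the tetraploid libraries. With that equal sum, the median steps were -0.84 and -0.41 in the 187 genes and 0.17 and -0.02 in the eligible genes. As deposited they were -0.72 and -0.48, and 0.29 and -0.09. The excess of falling over rising genes depended on the scale. Of the 187 genes, 92 met the whole rule under all 4 other scalings tried.

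**Figure D5:**
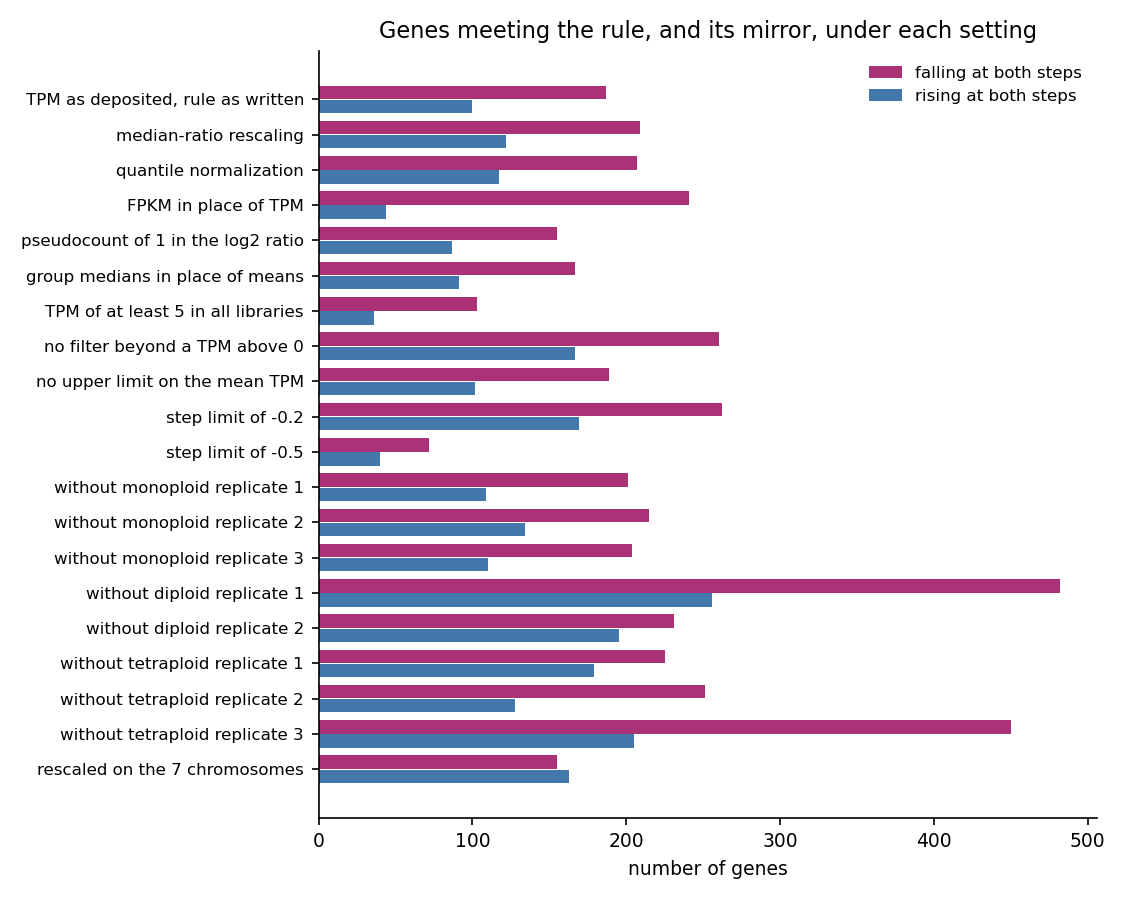
Number of genes (x axis, from 0) that met the rule (purple) and its mirror for rising genes (blue) under each setting (y axis). Falling genes outnumber rising ones under every setting shown except the rescaling on the 7 chromosomes (155 against 163), and the counts are highest without diploid replicate 1 (482) and without tetraploid replicate 3 (450).

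A limma fit on log2(TPM + 1) covered the 25652 genes that reached a TPM of 1 in 2 or more libraries. With p-values adjusted by Benjamini-Hochberg and a threshold of 0.05, the background of genes called lower was 9.13% for diploid against monoploid, 0.0078% for tetraploid against diploid and 12.1% for tetraploid against monoploid. Of the 187 genes, 109, 0 and 187 were called. As the rule used these contrasts, nothing is read from the excess over the background, and the contrasts share libraries. At step 2 the fit called 2 genes as lower in all, and none of the 187, of which 102 had an unadjusted p under 0.05, as did 828 of all genes in that direction. The lowest adjusted p at step 2 among the 187 was 0.0817, for BRA06G0038403. At step 2, therefore, no single gene of the 187 was separable from the spread between replicates once all genes were accounted for. Without either diploid replicate, the lone diploid library is assumed to vary like the other groups, so no count of called genes is given for these fits. The median step 1 of the 187 genes was -0.70 without diploid replicate 1 and -0.80 without diploid replicate 2. Over the eligible genes it was 0.31 and 0.27.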

How the data were processed

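RNA-seq of young leaves was used from 3 monoploid, 2 diploid and 3 tetraploid libraries. The authors trimmed reads with fastp 0.21.0, aligned them with HISAT2 and quantified genes with StringTie 1.3.5 (versions from the submitters' processing notes, which give HISAT2 2.2.1; the methods give another version of HISAT2). The assembly, annotation and strand setting are not given in the sources used here. The deposited TPM values sum to the same total per library, the deposited FPKM values are per length and depth, and the deposited coverage is in reads per base, averaged over the gene model. Depth is the constant ratio of coverage over FPKM in a library. In 1 table, 3 further columns were not used. The authors' test on read counts cannot be repeated on TPM.

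The rule was applied to TPM with no pseudocount. Genes under a TPM of 1 in any library were left out, so genes silenced after doubling cannot be among the 187. The members and lists were chosen with earlier results of these data known. Genes named are the 10 with the largest smaller step, the 5 with the largest total decrease, the 5 highest and 3 lowest in mean TPM, the 3 most uneven in each direction, direct neighbours, the longest and shortest, and the 2 nearest the limit on each side. limma 3.58.1 in R 4.3.3 was fitted with 3 ploidy levels and eBayes with trend, and was tested on simulated data; its p-values measure only the spread between these libraries. Tables were handled with pandas 2.3.3 and figures drawn with matplotlib 3.10.9. Alternatives were other scalings (median-ratio, quantile, FPKM, the sum over the 7 chromosomes), pseudocounts, filters, step limits and group medians, the replicate number as a block, and each library left out.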

Additional observations from a re-analysis of the deposited data

How the results depend on the processing

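The number of genes meeting the rule, 187, was 103 with a TPM of at least 5 in all libraries and 72 with a step limit of -0.5, both of which make the rule stricter, and 201 to 482 with 1 library left out. It was 209 with median-ratio rescaling (125 of them among the 187), 207 with quantile normalization (141 shared), 241 with FPKM (147 shared), 155 with a pseudocount of 1, 167 with group medians, 260 without a filter beyond a TPM above 0, 189 without the upper limit on the mean, 262 with a limit of -0.2 and 155 with rescaling on the 7 chromosomes (124 shared). The number called lower by limma between diploid and monoploid, 109, was 92 to 162 under the other settings and 41 to 118 with 1 library left out. Between tetraploid and diploid it was 0 under all these settings, and between tetraploid and monoploid 156 to 187. The lowest count, 156, came with a mean TPM of at least 5, a filter that 31 of the 187 genes did not pass, so that it called all those it tested. For the steps of the 34 named genes, 36 values under other scalings or a pseudocount of 1 differed from the reported value by more than the spread between replicates. The other 848, those with a library left out among them, did not. That spread was the larger SD of log2 TPM of the groups compared, with all libraries. Leaving out 1 library can hardly exceed it, so this does not show that the steps were stable. The moved steps of BRA05G0043502 and BRA08G009716 given above count as unchanged here. The selection on separated libraries fixes the sign of the steps.

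The replicate numbers are shared by the groups, but libraries with the same number did not deviate together throughout. Across genes the deviations correlated at 0.22, 0.18 and 0.08 between monoploid and tetraploid, each library best with its own number, but at -0.04 and -0.08 between monoploid and diploid and 0.03 and -0.22 between diploid and tetraploid, so the numbers were not taken to pair the samples. With the replicate number as a block, limma called 92, 0 and 187 of the 187 genes in the same 3 comparisons, beside 1852, 1 and 3008 of all 25652 genes. Depth limits the lowest genes, and with 2 diploid libraries the diploid spread rests on 1 difference per gene.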

Other observations

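On the chromosomes outside the rule, single tetraploid libraries stood higher. The same limits on level, separation and step size were met there by 10 of 1999 genes on A02 (0.500%), 7 of 1416 on A04 (0.494%) and 26 of 3126 on A09 (0.832%). The mirror rule for rising genes was met there by 69, 16 and 30 genes. These counts are for TPM as deposited. The part of the higher libraries in these counts was not tested.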
